A study of Rattus norvegicus with 2 samples.

Results

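The 9 genes described here mark the identity of excitatory projection neurons of the cerebral cortex. They were taken by symbol, each from the single row that carries it, out of 21224 gene rows of the deposited table. They are the deep layer genes Tbr1, Bcl11b, Fezf2 and Foxp2, the upper layer genes Cux1, Cux2 and Rorb, and the vesicular glutamate transporter genes Slc17a6 and Slc17a7. All 9 had a mean of at least 1 FPKM, as did 13172 rows in all, which are the genes tested below. FPKM is the number of reads scaled by the length of the gene and by the total reads of the library.

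Messenger RNA came from rat cortical neurons of embryonic day 18. One library was from cells that received a small interfering RNA against Ythdf3 (siYthdf3), which encodes a reader of the m6A mark on messenger RNA, and 1 library was from cells given a negative control RNA of that kind (siNC). The labels name no strain, culture time, injury or hypoxia for either library. Each group had 1 library, so no difference here has a replicate check, no test between conditions was possible and no p-value is given.

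Projection neurons of the cortex release glutamate and are born in an inside-out order, deep layers before upper layers. Transcription factors that repress one another fix which class a neuron joins: Tbr1 and Foxp2 mark neurons of layer 6, which project to the thalamus, and Fezf2 acts through Bcl11b in neurons of layer 5 that project to the brainstem and spinal cord. Cux1 and Cux2 mark neurons of the upper layers, and Rorb marks layer 4, which receives thalamic input. Slc17a6 and Slc17a7 encode VGLUT2 and VGLUT1, which load glutamate into synaptic vesicles, and in the cortex Slc17a7 becomes the main form as neurons mature.

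Reads assigned to genes numbered 22586543 in siYthdf3 and 15392218 in siNC. Ythdf3 itself (ENSRNOG00000010084) was at 6.93 FPKM in siYthdf3, against 9.38 FPKM in siNC, a ratio of 0.739 with a 95% counting interval of 0.675 to 0.809. The interval comes from the exact Clopper-Pearson bounds on how many of a gene's reads fell in siYthdf3, written as a ratio, and here and below it covers counting error only. Of the genes tested, 7.51% had a lower log2 ratio than the targeted gene.

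Slc17a7 and Rorb had the highest ratios of the 9 genes, so the 250 bases before their starts are shown beside those of Slc17a6, the transporter gene that differed less. The sequences are RefSeq's, on build GRCr8, and are written 5′ to 3′ on the strand of the gene. They lie at chr1:104785955-104786204 on the plus strand for Slc17a7, chr1:225970974-225971223 on the minus strand for Rorb and chr1:110348197-110348446 on the plus strand for Slc17a6. Capitals mark matches to an E-box (CANNTG, the core that proneural factors bind) or a GC box (GGGCGG, the core that Sp factors bind) on either strand.

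Slc17a7: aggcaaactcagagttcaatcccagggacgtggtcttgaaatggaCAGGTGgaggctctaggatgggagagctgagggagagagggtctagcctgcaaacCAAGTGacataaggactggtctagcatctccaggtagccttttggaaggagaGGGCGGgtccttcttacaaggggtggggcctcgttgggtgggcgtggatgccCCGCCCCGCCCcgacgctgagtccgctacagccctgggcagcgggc
Rorb: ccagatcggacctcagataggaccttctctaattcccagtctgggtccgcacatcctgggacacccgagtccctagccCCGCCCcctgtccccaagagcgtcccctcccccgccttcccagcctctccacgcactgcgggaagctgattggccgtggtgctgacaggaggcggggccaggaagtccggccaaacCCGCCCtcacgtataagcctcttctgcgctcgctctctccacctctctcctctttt
Slc17a6: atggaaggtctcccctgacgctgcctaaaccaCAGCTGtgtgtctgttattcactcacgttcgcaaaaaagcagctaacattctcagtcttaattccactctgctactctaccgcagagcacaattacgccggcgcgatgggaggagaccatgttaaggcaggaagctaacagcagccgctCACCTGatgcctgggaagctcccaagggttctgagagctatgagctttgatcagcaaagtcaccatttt

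The Slc17a7 window held 2 E-boxes and 3 GC boxes, of which the pair nearest the start overlap by 1 base. The Rorb window held 2 GC boxes and 0 E-boxes, and the Slc17a6 window 2 E-boxes and 0 GC boxes. Of the 33469 windows of the same length in the table, 65.5% held an E-box and 30.5% a GC box. A cyclic AMP response element (TGACGTCA, in 1.59% of windows) and the core motif of ROR receptors (AGGTCA, in 14.1%) were searched on both strands too and matched none of these 3 windows. RefSeq windows were matched for 7 of the 9 genes, all but Bcl11b and Foxp2. Fezf2, Cux1 and Cux2 each held a GC box and no E-box, and Tbr1 held an E-box and no GC box. These matches describe letters in a window, and no binding was measured here.

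Levels per length ordered the genes in much the same way in both libraries. Cux2 was highest, at 35.2 FPKM in siYthdf3, against 34.7 FPKM in siNC. Cux1, Bcl11b and Tbr1 followed, between 15.6 and 19.7 FPKM in siYthdf3 and between 14.9 and 18.6 FPKM in siNC. Foxp2, Slc17a6, Slc17a7, Fezf2 and Rorb were low, at 3.95 FPKM or less in siYthdf3 and 3.66 FPKM or less in siNC. Some neighbours in that order could not be separated by their reads. In siYthdf3 the level of Cux1 over that of Bcl11b was 1.01 (interval 0.969 to 1.05), and in siNC the level of Bcl11b over that of Tbr1 was 1.07 (interval 0.983 to 1.16). Foxp2 and Slc17a6 were within counting error of each other in both libraries, and Slc17a7 was within counting error of Foxp2 in siYthdf3 and of Fezf2 in siNC. Rorb was the lowest in both libraries, in siYthdf3 within counting error of Fezf2. A gene at 0 would have had an upper limit of 3 reads, which for Rorb is 0.0549 FPKM in siYthdf3, against 0.0806 FPKM in siNC, so all 9 genes were detected well above that limit.

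**Figure D1:**
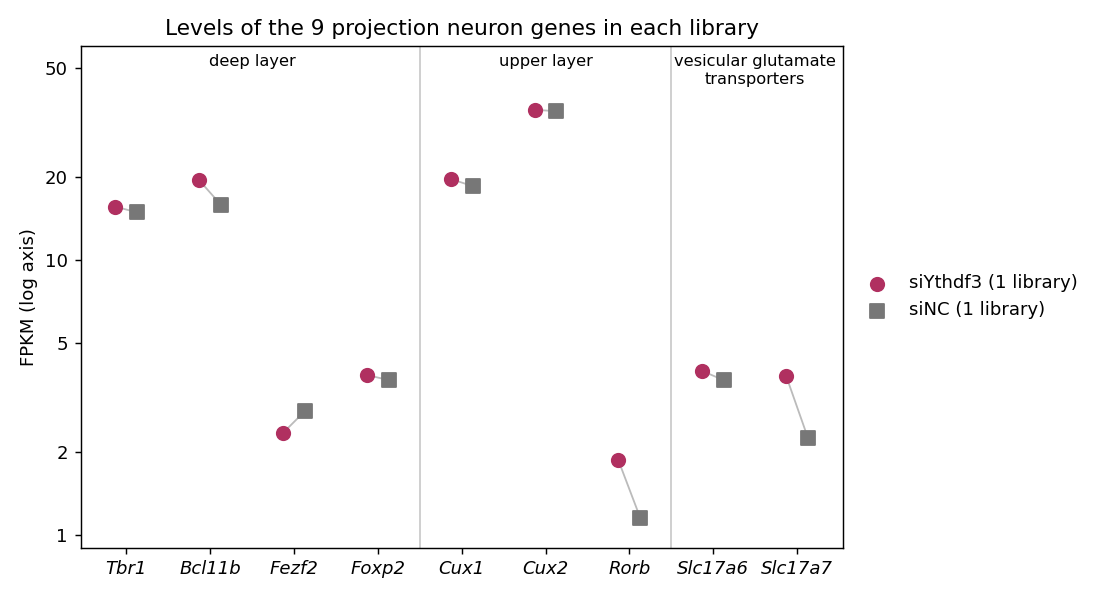
FPKM (log axis) of the 9 genes, with the siYthdf3 library as circles and the siNC library as squares, 1 library each, joined by a line per gene. Most pairs lie at nearly the same height, while Slc17a7 was at 3.79 FPKM in siYthdf3 against 2.25 FPKM in siNC and Rorb at 1.87 FPKM against 1.15 FPKM.

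The comparison of siYthdf3 with siNC left most of the 9 genes close to equal, and the 2 that stood out were Slc17a7 and Rorb, genes of glutamate release and of layer 4. On a log2 scale, siYthdf3 over siNC with 0.5 FPKM added to each value, 1 of the 9 was at least 1.5-fold higher (Slc17a7) and 0 were at least 1.5-fold lower. Among all genes tested 2.41% were at least 1.5-fold higher and 3.95% at least 1.5-fold lower. The median log2 ratio of the 9 was 0.08, against -0.01 for all genes tested. None of the 9 was 2-fold apart in either direction, against 0.706% of all genes higher and 0.896% lower. Counting intervals excluded 1 for 4 of the 9, where 42.1% of all genes did. They lay above 1 for those 4 (Slc17a7, Rorb, Bcl11b and Cux1), where 20% of all genes did, and below 1 for 0, where 22.2% did. In these bulk samples, more cells of a type and more RNA per cell cannot be told apart.

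**Figure D2:**
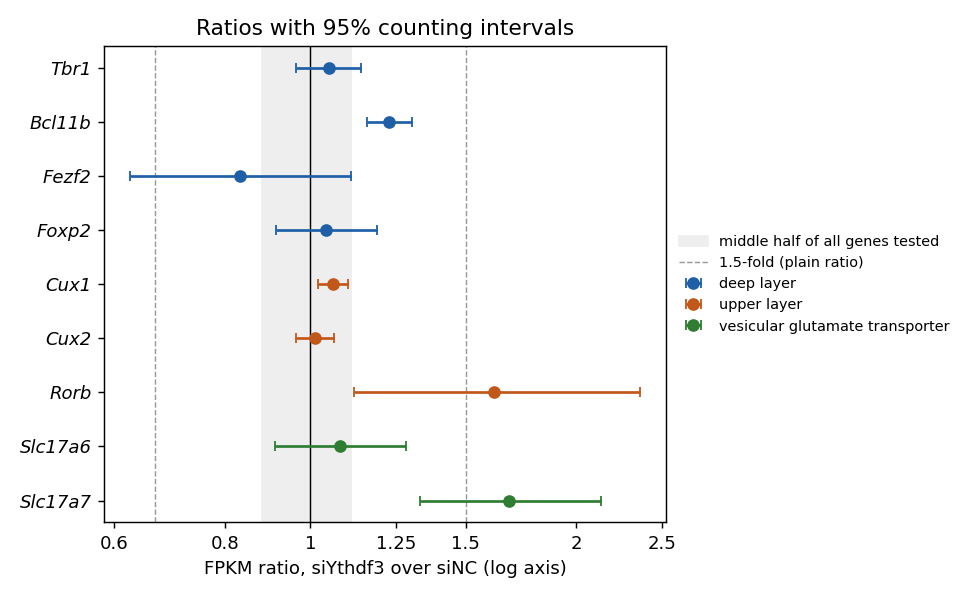
FPKM ratio of siYthdf3 over siNC (log axis) for each gene, with bars for the exact 95% counting interval, coloured by group. The grey band spans the quartiles of the ratio over all genes tested, 0.881 to 1.11. Slc17a7, Rorb and Bcl11b lie to its right, at 1.68, 1.62 and 1.23, and Fezf2 to its left, at 0.833.

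Among the deep layer genes, Bcl11b was higher in siYthdf3, Tbr1 and Foxp2 were nearly level, and Fezf2 was lower by less than its counting error. Bcl11b (ENSRNOG00000005776, chromosome 6, 126834531 to 126928224, minus strand) encodes CTIP2, the zinc finger factor that directs the axons of layer 5 neurons towards the spinal cord. It was at 19.5 FPKM in siYthdf3, against 15.9 FPKM in siNC, from 3236 and 1795 reads. Its ratio was 1.23 (interval 1.16 to 1.30), and 10.8% of all genes tested had a higher log2 ratio. Bcl11b is also made by striatal neurons and cortical interneurons. Of 12 striatal projection neuron markers, 4 had a mean of at least 1 FPKM, with a median log2 ratio of 0.15. For 3 of these the interval was above 1, where 20% of all genes tested had such an interval. The summed level of the 12 markers was 157 FPKM in siYthdf3, against 140.5 FPKM in siNC, none at 0. Penk and Meis2 made up most of that sum, at 85.7 and 62.9 FPKM in siYthdf3, against 74.7 and 58.6 FPKM in siNC. The dopamine receptor genes Drd1 and Drd2, picked with their values known, had 0.411 and 0.242 FPKM in siYthdf3, against 0.285 and 0.402 FPKM in siNC. They had 36 and 15 reads in siYthdf3 and 17 each in siNC, and both intervals include 1. The part of those cells in the Bcl11b value was not tested.

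Tbr1 (ENSRNOG00000005049, chromosome 3, 46351213 to 46361041, plus strand), a T-box factor that sets layer 6 identity, was at 15.6 FPKM in siYthdf3, against 14.9 FPKM in siNC. The ratio of 1.05 had an interval of 0.964 to 1.14 and came from 1399 and 909 reads. Foxp2 (ENSRNOG00000054508, chromosome 4, 43133912 to 43711683, plus strand), a forkhead repressor of layer 6 neurons, was at 3.82 FPKM in siYthdf3, against 3.66 FPKM in siNC, and the ratio was 1.04 (interval 0.915 to 1.19). Both intervals include 1, and both exclude a ratio of 1.5. Fezf2 (ENSRNOG00000009206, chromosome 15, 12773762 to 12777554, plus strand), the zinc finger factor that specifies neurons projecting below the cortex, was the only one of the 9 genes with a lower value in siYthdf3. It was at 2.35 FPKM in siYthdf3, against 2.82 FPKM in siNC, from 110 and 90 reads, and the ratio of 0.833 had an interval of 0.625 to 1.11. That interval includes 1, so the reads of Fezf2 alone could not tell a lower level from an equal one.

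Among the upper layer genes, Cux1 and Cux2 were nearly level and Rorb was higher in siYthdf3. Cux2 (ENSRNOG00000001259, chromosome 12, 34520959 to 34705806, plus strand), a homeodomain factor of upper layer neurons that shapes their dendrites, was at 35.2 FPKM in siYthdf3, against 34.7 FPKM in siNC. Its ratio of 1.01 came from 4045 and 2722 reads, with an interval of 0.964 to 1.06. Its paralogue Cux1 (ENSRNOG00000001424, chromosome 12, 20107311 to 20425866, plus strand) was at 19.7 FPKM in siYthdf3, against 18.6 FPKM in siNC, and the ratio was 1.06 (interval 1.02 to 1.10). The Cux1 interval excludes 1 and rests on 6709 and 4309 reads, the most of the 9 genes. Of the 1833 genes tested with at least 4000 and under 20000 reads over both libraries, 72.5% had an interval that excludes 1, and 39.9% one that lies above it.

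Rorb (ENSRNOG00000013413, chromosome 1, 216363629 to 216544390, minus strand) encodes a nuclear receptor that helps layer 4 neurons gather into their map of thalamic input. It was at 1.87 FPKM in siYthdf3, against 1.15 FPKM in siNC. The ratio was 1.62, and the interval of 1.12 to 2.37 is the widest of the 9 genes, on 102 and 43 reads. On the log2 scale with 0.5 FPKM added, the difference was 0.52, and 3.20% of all genes tested had a higher value. With 0.1 FPKM added it was 0.65, which passes 1.5-fold.

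The vesicular glutamate transporter genes were unequal in their ratios. Slc17a7 (ENSRNOG00000020650, chromosome 1, 95649745 to 95661588, plus strand) was at 3.79 FPKM in siYthdf3, against 2.25 FPKM in siNC, from 254 and 103 reads. Its ratio of 1.68 (interval 1.33 to 2.13) was the highest of the 9 genes, and 1.91% of all genes tested had a higher log2 ratio. Slc17a6 (ENSRNOG00000016147, chromosome 1, 101212489 to 101252542, plus strand) was at 3.95 FPKM in siYthdf3, against 3.65 FPKM in siNC, and the ratio was 1.08 (interval 0.912 to 1.28). Slc17a7, Slc17a6, Rorb, Fezf2 and Foxp2 had at least 100 and under 1000 reads over both libraries. Of the 5820 genes tested in that band, 1.74% were at least 1.5-fold higher and 12.5% had an interval above 1. The third transporter gene of this family, Slc17a8, picked with its value known, had 8 reads in siYthdf3 and 3 reads in siNC.

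**Figure D3:**
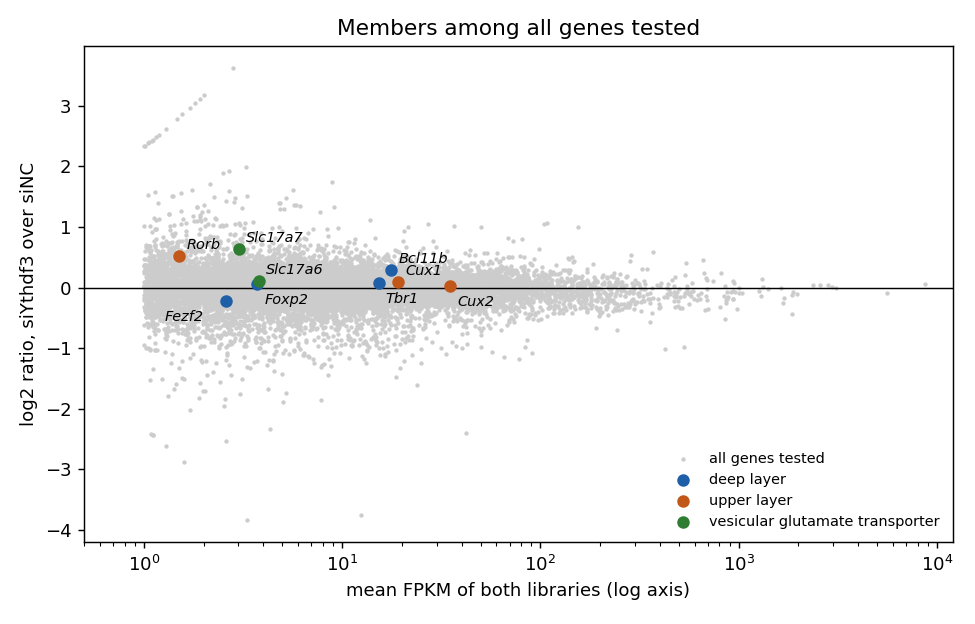
Mean FPKM of both libraries (log axis) against the log2 ratio of siYthdf3 over siNC with 0.5 FPKM added, 1 grey point per gene tested and coloured points for the 9 genes. The horizontal line is the median of all genes, -0.01, and Slc17a7 at 0.64 and Rorb at 0.52 lie high, with 1.91% and 3.20% of all genes above them, while the spread of all genes is wider at low levels.

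The ratio of reads between 2 of the genes was compared between the libraries as an odds ratio with an exact conditional interval. In an odds ratio gene length and the scaling of each library cancel. Of the 6 gene pairs compared, 3 had an interval that excludes 1, where 42.1% of all single genes tested did. No share over other gene pairs was computed. These 3 pairs hold Slc17a7, Rorb or Bcl11b, whose own intervals exclude 1, so they restate those ratios in part. Slc17a7 per Slc17a6 was 0.959 in siYthdf3 and 0.617 in siNC on the FPKM scale, an odds ratio of 1.55 (interval 1.16 to 2.09). Slc17a7 thus held 48.9% of the summed FPKM of both transporters in siYthdf3 and 38.2% in siNC. Rorb per Cux2 had an odds ratio of 1.60 (interval 1.10 to 2.34), and Bcl11b per Fezf2 one of 1.47 (interval 1.10 to 1.98). Bcl11b was 8.30 times the Fezf2 level in siYthdf3 and 5.62 times that level in siNC. The odds ratio was 0.954 (interval 0.897 to 1.02) for Cux2 per Cux1, 0.994 (interval 0.850 to 1.16) for Foxp2 per Tbr1 and 1.26 (interval 0.930 to 1.70) for Tbr1 per Fezf2.

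Deep and upper layer genes were then set against each other. The median log2 ratio was 0.06 for the 4 deep layer genes and 0.08 for the 3 upper layer genes, against -0.01 for all genes tested, and both medians were below 0 when ratios were centred on pan-neuronal markers. The deep layer genes ranged between -0.22 and 0.29 and the upper layer genes between 0.02 and 0.52, ranges that overlap in part. The summed level of the deep layer genes was 41.3 FPKM in siYthdf3, against 37.3 FPKM in siNC, and that of the upper layer genes 56.7 FPKM in siYthdf3, against 54.5 FPKM in siNC. Reads of deep per upper layer genes had an odds ratio of 1.09 (interval 1.04 to 1.15), which Bcl11b decided. Without it the odds ratio was 0.988 (interval 0.917 to 1.06). Rorb had little weight in these sums, with 102 of the 10856 upper layer reads in siYthdf3 and 43 of 7074 in siNC.

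Further genes of the same layers were mostly a little higher in siYthdf3, with none 1.5-fold apart. List medians, 0.11 for deep and 0.21 for upper layer genes, were below the 0.23 of pan-neuronal markers, the upper layer one by little. Of all genes tested, 20% had an interval above 1 and 22.2% one below, and these shares were larger for genes with more reads. Of 16 other deep layer genes, 13 had a mean of at least 1 FPKM, with a median log2 ratio of 0.11, 6 intervals above 1 and 2 below. The largest differences were those of Nr4a2, a nuclear receptor of layer 6b that activity also induces, at 9.69 FPKM in siYthdf3, against 6.94 FPKM in siNC, and of Nfib, a factor of neuronal and glial maturation, at 50.6 FPKM in siYthdf3, against 38.3 FPKM in siNC. The neurotensin receptor Ntsr1, a marker of layer 6 neurons projecting to the thalamus, was at 3.87 FPKM in siYthdf3, against 2.89 FPKM in siNC, and the zinc finger gene Tshz2 at 21.8 FPKM in siYthdf3, against 17.0 FPKM in siNC. These 4 had log2 ratios of 0.45, 0.40, 0.37 and 0.35. The list was mixed, as 5 of the 13 measured genes had a log2 ratio below 0. The 2 intervals below 1 were those of Zfpm2 at -0.27 and Etv1 at -0.17, picked with their values known.

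All 16 other upper layer genes were measured, with a median log2 ratio of 0.21. Of their intervals 9 lay above 1 and 2 below, against 20% and 22.2% of all genes tested. Dok5, an adaptor of receptor kinases, was at 0.37 on the log2 scale, the POU factor gene Pou3f1 at 0.32 and Kitlg, the ligand of KIT, at 0.30. Summed over the list, the level was 938 FPKM in siYthdf3, against 944 FPKM in siNC, the other direction from the median. The secreted factor gene Ptn, picked with its value known, made up most of that sum, at 517 FPKM in siYthdf3, against 549 FPKM in siNC.

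Of 16 genes of the excitatory neuron lineage, 13 were measured, with a median log2 ratio of 0.15. Their intervals lay above 1 for 7 and below 1 for 0, against 20% and 22.2% of all genes tested. Of the 13, 1 was at least 1.5-fold higher. That gene was Nrgn, which encodes the calmodulin-binding protein neurogranin, at 0.71 on 21 and 8 reads, with an interval of 0.761 to 4.67 that includes 1. Mef2c, an activity-regulated factor of neuronal maturation, was at 64.4 FPKM in siYthdf3, against 47.2 FPKM in siNC, and Neurod2, a proneural-type factor of excitatory neurons, at 122 FPKM in siYthdf3, against 102 FPKM in siNC. The receptor phosphatase gene Ptprd was at 0.28. GABAergic neuron markers, which belong to the other main class of cortical neurons, were 13, all measured, with a median of 0.12. Their interval was above 1 for 5 and below 1 for 0, against 20% and 22.2% of all genes tested. Dlx6, a homeodomain factor of that class, was at 0.38, the GABA-synthesizing enzyme gene Gad2 at 0.29, Nxph1 at 0.19 and the calcium-binding protein gene Calb2 at -0.19.

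**Figure D4:**
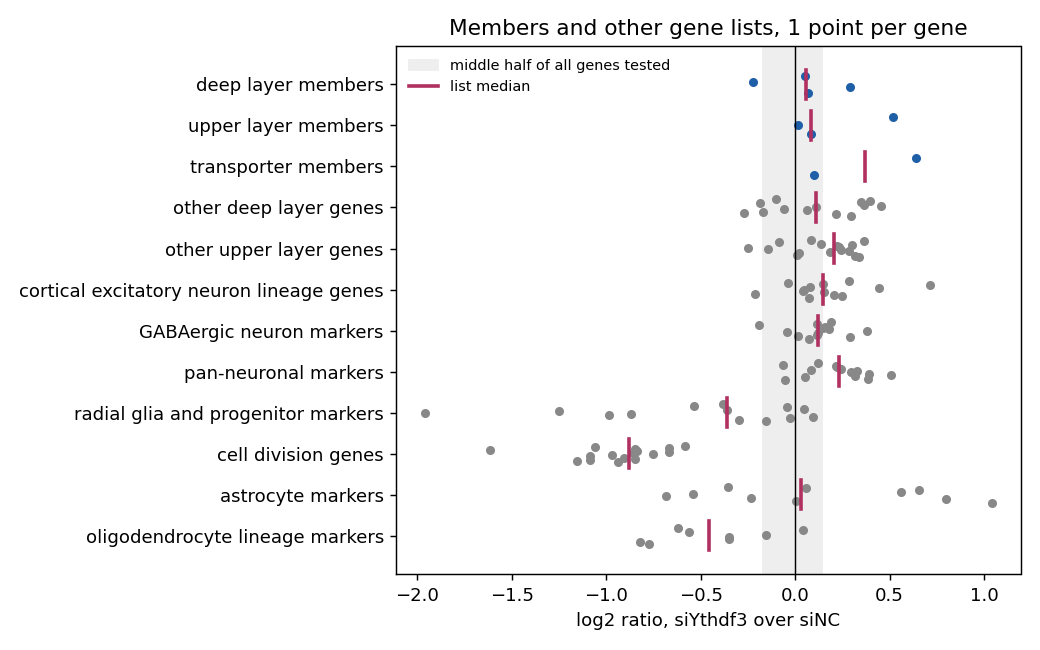
Log2 ratios of siYthdf3 over siNC, 1 point per gene with a mean of at least 1 FPKM, for the 9 genes (blue) and 9 other lists (grey), with red bars for list medians and a grey band for the quartiles of all genes, -0.17 to 0.14. Layer and neuronal lists have medians between 0.06 and 0.23 and the transporters one of 0.37, while progenitor and cell division lists have medians of -0.36 and -0.88.

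Markers of other cells differed between the libraries as well, and their part in the values of the 9 genes was not tested. Beside the counts of intervals below, 20% of all genes tested had an interval above 1 and 22.2% one below. For genes with at least 4000 and under 20000 reads over both libraries, the shares were 39.9% and 32.6%. Pan-neuronal markers had a median log2 ratio of 0.23, with 11 of 14 intervals above 1 and 1 below, and a summed level of 2295 FPKM in siYthdf3, against 1981 FPKM in siNC. Their largest differences were those of Nefm at 0.51, Nefh and Map2 at 0.39 each and Syt1 at 0.33. The interval below 1 was that of Tubb3, at -0.05, and those of Rbfox3 and Elavl4 include 1. These 3 were picked with their values known. Markers of radial glia and progenitors had a median of -0.36, with 9 of 13 intervals below 1 and 0 above, and a summed level of 1489 FPKM in siYthdf3, against 2169 FPKM in siNC. Eomes, the T-box factor that precedes Tbr1 in the lineage of excitatory neurons, was at 0.743 FPKM in siYthdf3, against 4.34 FPKM in siNC. Neurog2, the proneural factor upstream of Eomes, was at 7.60 FPKM in siYthdf3, against 18.8 FPKM in siNC. Tbr1 itself was nearly level.

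The intervals of all 16 cell division genes lay below 1. Over all genes tested, here and for the lists that follow, 22.2% lay below 1 and 20% above. The median of the 16 cell division genes was -0.88, and they had a summed level of 279.8 FPKM in siYthdf3, against 540.0 FPKM in siNC. Summed astrocyte markers were at 215 FPKM in siYthdf3, against 143 FPKM in siNC, with a median log2 ratio of 0.03, 4 of 10 intervals above 1 and 3 below. Gfap, the intermediate filament gene of astrocytes, was the only one 2-fold apart and made up most of that difference, at 141 FPKM in siYthdf3, against 68.2 FPKM in siNC. Oligodendrocyte lineage markers were at 62.3 FPKM in siYthdf3, against 76.2 FPKM in siNC, with a median log2 ratio of -0.46 and 5 of 8 measured intervals below 1. The largest part of both sums was Mog, picked with its value known and nearly level, at 39.0 FPKM in siYthdf3, against 37.8 FPKM in siNC. Microglia markers summed to 3.68 FPKM in siYthdf3, against 7.61 FPKM in siNC, and 3 of the 8 were measured. Tyrobp at -1.71, on 8 and 27 reads, and Aif1 at -0.72 had intervals below 1. P2ry12 went the other way at 0.36, with an interval that includes 1. Cx3cr1, not among the 3, was at 0 in siYthdf3 and had only 2 reads in siNC. Endothelial markers, 0 of 6 measured, summed to 0.753 FPKM in siYthdf3, against 0.991 FPKM in siNC. Pericyte, fibroblast and meningeal markers summed to 161 FPKM in siYthdf3, against 136 FPKM in siNC, most of it the smooth muscle actin gene Acta2, picked with its value known, at 147 FPKM in siYthdf3, against 121 FPKM in siNC. The median log2 ratio of the 6 measured was -0.39, the other direction from the sum, with 3 intervals below 1 and 2 above. Col3a1 at -0.80, Col1a2 at -0.70 and Pdgfrb at -0.59 were lower and Myh11 at 0.57 was higher. Lum was at 0 in siNC but had only 6 reads in siYthdf3, and its interval includes 1. Slc17a6 is strong in the thalamus, whose 7 markers summed to 9.73 FPKM in siYthdf3, with Gbx2 at 0, and to 11.4 FPKM in siNC. Gbx2 had only 7 reads in siNC. The 5 measured thalamic markers had a median log2 ratio of -0.21, with 2 intervals below 1 and 0 above. Of the 6 hippocampal markers, 3 were measured, and Zbtb20, a repressor needed for hippocampal neurons that astrocytes also make, was at 6.27 FPKM in siYthdf3, against 3.87 FPKM in siNC. The median of these 3 was 0.15, and the intervals of Prox1 at 0.15 and Wfs1 at -0.03 include 1.

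The 9 genes were also set against the pan-neuronal markers of the same library, which moves all 9 ratios by 1 common factor. Per pan-neuronal read, Slc17a7 had an odds ratio of 1.42 (interval 1.13 to 1.81) and Rorb one of 1.37 (interval 0.95 to 2.0). Bcl11b was level at 1.04 (interval 0.982 to 1.10). Cux1 was lower at 0.899 (interval 0.864 to 0.935), Cux2 at 0.858 (interval 0.817 to 0.902), Tbr1 at 0.889 (interval 0.816 to 0.967) and Fezf2 at 0.706 (interval 0.529 to 0.943). Foxp2 and Slc17a6 had intervals that include 1, at 0.883 and 0.917. Reads of all 9 genes together had an odds ratio of 0.917 (interval 0.893 to 0.941). This comparison was chosen after the values were seen, and the pan-neuronal markers include genes that neurons raise as they mature, such as the neurofilament genes. It also depends on which markers hold the most reads. Map2, with a ratio of 1.31, gave 39059 of the 158556 pan-neuronal reads in siYthdf3 and 20338 of 91544 in siNC. Tubb3, at a ratio of 0.964, went the other way, and no single marker was used as the reference.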

How the data were processed

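Messenger RNA was measured in 1 siYthdf3 and 1 siNC library of rat cortical neurons of embryonic day 18, grouped by title. Per the labels' protocols, 1 ug of RNA went into a kit that tags cDNA molecules with identifiers of 12 bases, read as pairs of 150 bases. The submitters' processing notes name STAR 2.7.6a, fastp 0.23.2, StringTie 2.1.4, edgeR 3.40.2, Subread 1.5.1 and featureCounts, and give them no roles. Not given in the sources used here are the genome build, the annotation, the use of strand and whether reads were collapsed by identifier, so coordinates of the table carry no build, and reads of overlapping genes and of near copies are uncertain.

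The authors deposited FPKM values per gene with gene lengths, per the file headers. In each library every value, multiplied by its gene's length, came to a whole number of reads within 0.05, and those reads set depth and intervals. Such reads may be copies of 1 molecule, so intervals and the limit of 3 reads cover counting error only. A pseudocount of 0.5 FPKM entered the log2 ratios, so differences of low genes are understated. A fold of 1.5 or 2 stands in for a test.

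Members, lists and comparisons were chosen with earlier results of these data known. Of 171 entries of the 15 other lists, 169 matched a symbol of the table. Named from each list were genes 2-fold apart and the up to 4 with the largest differences, not all of which are given. Genes picked with their values known fall outside this rule. Intervals were tested on simulated reads. Alternatives were other pseudocounts, filters and scalings, removal of a length trend and thinning. Calculations used Python 3.11.15, numpy 2.4.6, pandas 2.3.3, scipy 1.17.1 and matplotlib 3.10.9.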

Additional observations from a re-analysis of the deposited data

How the results depend on the processing

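The direction of all 9 genes was kept under the other pseudocounts, filters and scalings, without the length trend and after thinning, wherever a value was had, with log2 ratios of 0.56 to 0.75 for Slc17a7, 0.41 to 0.66 for Rorb, 0.28 to 0.34 for Bcl11b and -0.25 to -0.19 for Fezf2. The number of genes at least 1.5-fold apart was 2 with a pseudocount of 0.1 FPKM or after rescaling to TPM, and 0 with a pseudocount of 1 FPKM or where the mean had to reach 5 FPKM, where Slc17a7 and Rorb were not measured and the transporters gave no median. Centring on the pan-neuronal median, chosen after the data were seen, gave 0 such genes. It turned Tbr1 to -0.17, Foxp2 to -0.18, Cux1 to -0.15, Cux2 to -0.21 and Slc17a6 to -0.13, the other direction from the main setting. Bcl11b was then at 0.056, Rorb at 0.28, Slc17a7 at 0.41 and Fezf2 at -0.45. The medians were -0.17 for deep and -0.15 for upper layer genes. Without Bcl11b, also chosen after the data were seen, deep per upper layer reads had an odds ratio of 0.988. No list shared a gene with another, and each of the 9 symbols had 1 row, so those alternatives changed nothing. No paired analysis was possible because each group has 1 library, and for the same reason no library could be left out. Depth limits Rorb and Fezf2 most.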
